A study of Mus with 2 samples.

Results

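The B cluster of a single-cell RNA sequencing study of mouse kidney is described here, as the senescent library compared with the young one. Its members are the genes that the authors' deposited table lists for the cluster they labelled B, with a mean of at least 0.1 in either library. They number 3075 of 3077 genes listed for B, and the whole table covers 8192 genes in 7 clusters. Snx31 and Mrm2, each with a young mean of 0.0906, fell under that minimum.

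Cells were released enzymatically from kidneys of young and of senescent C57BL/6 mice and captured in droplets, with 1 library per group. The series states 4408 cells of all types for the senescent mice and a larger number for the young mice. No treatment or engineered allele is labelled. The name of the contrast in the table sets C57 against WT and is not explained. The direction of every difference below therefore rests on the sample descriptions, which assign the first group column to the young and the second to the senescent mice. The ages, the number of mice in a library and the number of cells in the B cluster are not stated in these sources.

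B cells are lymphocytes that recognise antigen through a membrane immunoglobulin held in complex with the signalling chains CD79A and CD79B. Antigen that the receptor takes up is cut into peptides and shown to helper T cells on MHC class II molecules, and activated B cells can become antibody-secreting plasma cells. In the kidney they are a minor resident and circulating population, beside a large mass of tubule epithelium.

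Each value is a mean over the cells of the cluster that the authors computed, on a scale with no stated factor. With 1 library per group there is no replicate spread, no SD and no test between groups, and each value below stands for 1 library. Group and library cannot be told apart. Adjusted p-values are those of the authors' deposited table, whose test is not stated and can compare only these libraries, not the ages. "Rose" and "fell" are used for genes with an adjusted p of at most 0.05 in that table. The table lists a gene in B only where its p-value was under 0.05 and its log2 fold change was 0.36 or more in size, so a gene that is not listed has no known level.

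Genes with a lower mean in the senescent library prevailed in B. Of the 3075 genes, 869 (28.3%) had higher and 2206 (71.7%) had lower means, and the median log2 ratio after adding 1 to each mean was -0.27. By the adjusted p of the authors' deposited table, 102 rose (3.32% of the listed genes) and 505 fell (16.4%). These shares are the background for the counts given per gene list below, and a gene can stand on several lists. With a log2 fold change of 1 or more in size as well, the authors' deposited table held 86 higher (2.80%) and 477 lower genes (15.5%). The plot of all listed genes shows B cell and ribosomal genes above the diagonal, and tubule and respiratory chain genes under it.

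**Figure D1:**
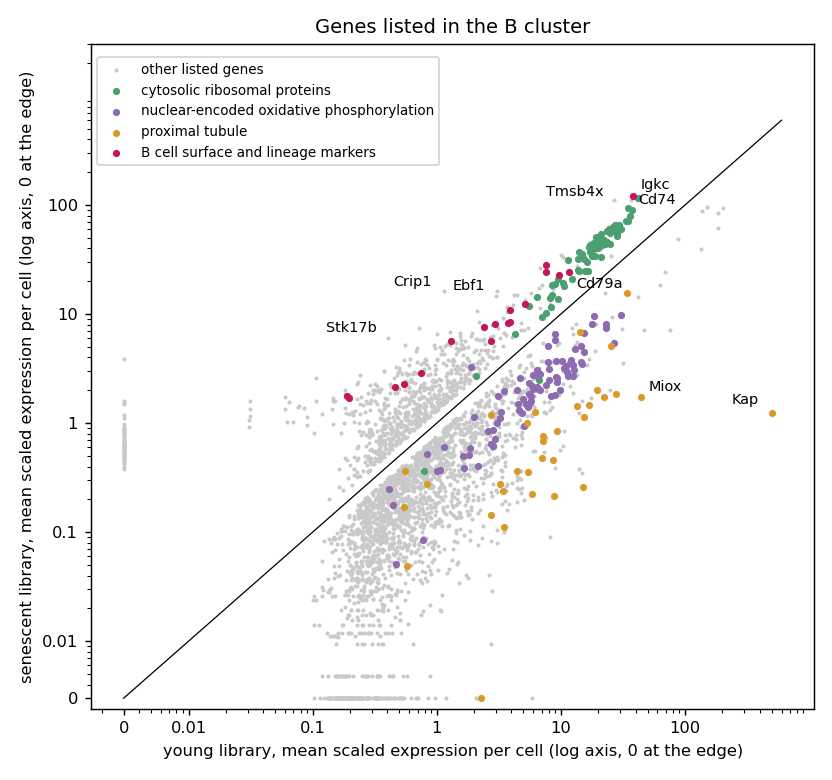
Mean scaled expression per cell of each gene listed in the B cluster, young library on the horizontal and senescent library on the vertical log axis, with means of 0 drawn at the edge and the line of equality in black. All 18 listed B cell markers lie above the line and all 33 listed proximal tubule markers under it, with Kap at 499 and 1.24.

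Transcripts of the proximal tubule were among those with lower senescent means. Of 34 tubule markers, 33 were listed in B, all with lower senescent means, and 27 of them fell. Their means summed to 844 (young) and 49.8 (senescent), which was 10.7% and 0.678% of the sum over all genes listed in B. Kap, an androgen-regulated kidney transcript, made up most of the young sum, with means of 499 and 1.24. It had lower senescent means in all 7 clusters, with 505 and 2.82 in T, 642 and 2.24 in Marco and 719 and 21.4 in PT, so its difference was not limited to B. Miox, an inositol-oxidising enzyme of the tubule, fell from 44.6 to 1.75, and Akr1c21, a steroid-metabolising reductase, from 28 to 1.86. These genes are not known as B cell products. The other 6 listed markers had lower means without passing, and among these Gpx3 had the highest means, at 34.2 and 15.5. The part of tubule transcripts in the other differences in B was not tested.

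The defining B cell genes were present in both libraries and higher in the senescent one. Of the 5 markers of the label, Cd79a had means of 11.7 (young) and 24.5 (senescent), a 2.09-fold difference. Its partner in the receptor complex, Cd79b, had means of 5.19 and 12.3 (2.37-fold), and both rose. Ms4a1, which encodes the surface protein CD20, had means of 2.42 and 7.69, with an adjusted p of 1 in the authors' deposited table. All 4 of the other markers passed the adjusted p, and Ms4a1 alone did not. Of the 7 clusters, the authors' deposited table lists Cd79a, Cd79b and Ms4a1 only for B.

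A wider list of 28 surface and lineage markers includes the markers of the label, so it repeats their values in part. It had 18 members listed, all with higher senescent means. The 6 that rose were Cd79a, Cd79b, Ighm, Igkc, Cd52 and Ly6d. The median log2 ratio of the 18 was 1.17, against -0.27 over all listed genes. Their share of the summed means of all listed genes was 1.30% (young) and 4.05% (senescent). Igkc alone gave 38.1 (young) and 120.3 (senescent) of their sums of 102.9 and 297.8. Cd52, a small glycoprotein of lymphocyte surfaces, rose from 7.65 to 28.2, and Ly6d, a marker of the B lineage, from 7.61 to 24.2. Lower on the scale, Bank1, a scaffold protein of B cells, had means of 1.29 and 5.64. The inhibitory receptor gene Cd22 had means of 0.458 and 2.14, and Cd72, another inhibitory receptor gene, had means of 0.188 and 1.75. None of these 3 passed the adjusted p. The other 10 list members, Cr2 among them, were not listed.

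**Figure D2:**
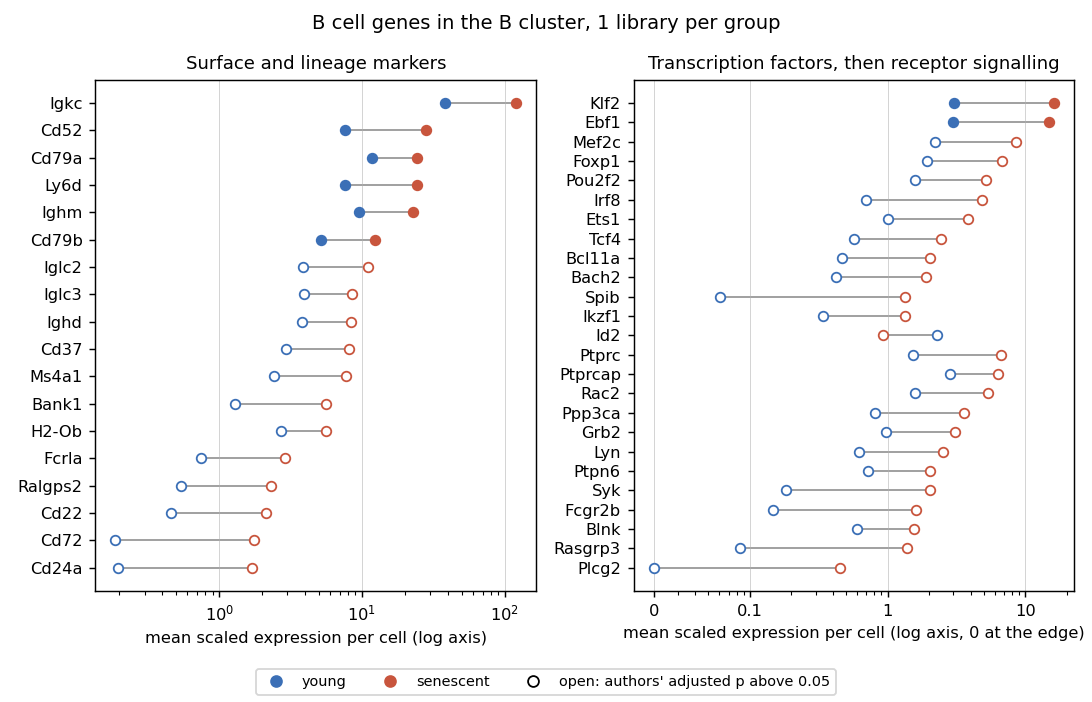
Mean scaled expression per cell (log axis) of the listed B cell markers (left) and of transcription factors and receptor signalling genes (right), young in blue and senescent in red, with open points for an adjusted p above 0.05. Only Id2 is lower in the senescent library; Igkc, at 38.1 and 120.3, is the highest marker.

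Of the immunoglobulin chains, only Igkc was among the 10 genes past the adjusted p with the highest senescent means. No chain was among the 10 with the highest young means. The kappa light chain constant gene Igkc rose from 38.1 to 120.3 (3.16-fold), the highest mean among the markers in either library. Ighm, the heavy chain of IgM, rose from 9.61 to 22.6 (2.36-fold). Ighd, the IgD heavy chain that naive B cells carry beside IgM, had means of 3.78 and 8.32, and the lambda chain genes Iglc2 and Iglc3 had means of 3.86 and 11.0, and of 3.92 and 8.50. These last 3 did not pass the adjusted p. A ratio between transcripts of the same library does not depend on a factor common to all genes. The ratio of Ighd to Ighm was 0.393 (young) and 0.368 (senescent), so the IgD and IgM transcripts kept nearly the same proportion. The ratio of Igkc to the sum of Iglc2 and Iglc3 was 4.89 and 6.18. Igkc over Ighm went from 3.96 to 5.31, a 1.34-fold difference without a replicate check. The class-switched chains Ighg1, Ighg2b, Ighg2c, Ighg3, Igha and Ighe were not listed.

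Behind the receptor, signalling genes had higher means without passing the adjusted p. Of 38 genes of B cell receptor signalling, 15 were listed, all with higher senescent means, and 0 passed by the adjusted p of the authors' deposited table, though each was listed with an unadjusted p under 0.05. The tyrosine phosphatase gene Ptprc, which encodes CD45, had the highest senescent mean of them, at 1.54 and 6.64. The kinase genes Lyn and Syk had means of 0.620 and 2.53, and of 0.181 and 2.01. The adaptor gene Blnk had means of 0.595 and 1.56. The inhibitory Fc receptor gene Fcgr2b had means of 0.147 and 1.61, and the phospholipase gene Plcg2 was listed at 0 and 0.451. Listed activating and inhibitory members thus both had higher means, and the median log2 ratio of the 15 was 1.14. Of all genes listed in B, 28.3% had higher means and 3.32% rose. Bank1, Cd22 and Cd72 are on this list as well as on the marker list.

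Transcription factors of the B lineage followed, and a pair of them rose. Ebf1, which specifies the B lineage, went from 3 to 14.7 (4.90-fold, adjusted p = 0.000362 in the authors' deposited table). Klf2, a factor of lymphocyte quiescence and recirculation that is also quickly induced by shear and stress, went from 3.04 to 16.2 (5.34-fold, adjusted p = 0.00366 in the authors' deposited table). Of the 25 factors, 13 were listed and 12 of these had higher means. Mef2c, a factor downstream of the receptor, had means of 2.2 and 8.53, and Irf8 had means of 0.694 and 4.86. Pou2f2, an octamer-binding factor, had means of 1.59 and 5.19. Spib had means of 0.0605 and 1.34, and Bach2, a repressor of plasma cell differentiation, had means of 0.421 and 1.90. Id2, an inhibitor of E-protein factors, went the other way, at 2.28 and 0.925, with an adjusted p of 0.118 in the authors' deposited table. Pax5 was not listed.

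Genes of recirculation and survival were on the higher side as well. All 9 listed of 25 trafficking genes had higher means, where 28.3% of all listed genes did. Klf2, already counted among the transcription factors, was the only one that rose, where 3.32% of all listed genes rose. The sphingosine phosphate receptor gene S1pr1, a known Klf2 target, had means of 0.38 and 1.70. Gpr183, an oxysterol receptor that positions B cells, had means of 0.508 and 3.03. Cd69, which retains lymphocytes in tissue, had means of 1.06 and 5.03. Among 24 genes of survival and apoptosis, 5 were listed, all higher, and 1 rose. That was Stk17b, a kinase of the death-associated family that is highly expressed in lymphocytes, at 0.401 and 6.09. Its 15.2-fold difference (adjusted p = 0.000562 in the authors' deposited table) was the largest of any gene that rose in B. Mcl1, an anti-apoptotic gene, had means of 2.13 and 5.86.

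Antigen presentation genes rose in both MHC classes. Of 14 class II pathway genes, 11 were listed, all higher, and 4 rose, with a median log2 ratio of 1.37. Cd74, the invariant chain that escorts class II molecules, went from 36.9 to 110.5 (2.99-fold). The class II chain genes H2-Aa, H2-Ab1 and H2-Eb1 went from 13.8 to 37.3, from 10.1 to 34.8 and from 10.4 to 33.1. H2-Ob and H2-Oa, whose product restrains peptide loading in B cells, had means of 2.72 and 5.63, and of 0.881 and 2.82, and H2-DMa, which promotes loading, had means of 1.42 and 4.35. None of these 3 passed. In the class I pathway 11 of 18 genes were listed, all higher, and 4 rose. B2m, the light chain of class I molecules, rose from 4.22 to 15.0 (3.55-fold), H2-K1 from 4.42 to 15.0 and H2-D1 from 6.14 to 14.3. Psmb8, an immunoproteasome subunit gene, rose from 1.16 to 5.07. Of 22 listed proteasome genes, 17 had lower means, and of the 5 with higher means Psmb8, Psmb9, Psme1 and Psme2 are interferon-inducible.

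Immediate early genes, which respond to receptor signals and to tissue dissociation, were also higher. Of 34 such genes 16 were listed, all with higher means, with a median log2 ratio of 1.25. Only Klf2 and Jund rose, where 3.32% of all listed genes rose. Klf2 was already counted among the transcription factors and the trafficking genes. Jund went from 5.18 to 13.4. Fos had means of 0.716 and 7.49, with an adjusted p of 1 in the authors' deposited table, and Junb had means of 1.43 and 4.93. Interferon response genes had 6 of 35 members listed, all higher, and the 2 that rose were Ly6e, at 6.67 and 17.2, and Ly6a, at 2.77 and 7.95. Ifit1 and Isg15 were not listed. Of 20 NF-kB genes only Nfkbia, at 0.490 and 2.1, and Nfkbib, at 0.231 and 0.179, were listed, and neither passed.

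Genes of the cytoskeleton included some of the steepest differences. Of 38 members of an actin-related list, which also holds Crip1 and Vim, 26 were listed, 25 with higher means, and 6 rose. Tmsb4x, an actin monomer-binding peptide gene, rose from 26.9 to 112.0 (4.17-fold), whereas Actb, which encodes beta-actin, rose from 26.6 to 57.8 (2.17-fold). The ratio of Tmsb4x to Actb was thus 1.01 (young) and 1.94 (senescent). Crip1, a small LIM-domain protein gene found in memory and innate-like B cells, rose from 1.14 to 16.3 (14.3-fold, adjusted p = 0.00444 in the authors' deposited table). Vim, which encodes vimentin, had means of 0.555 and 5.20, with an adjusted p of 0.533 in that table.

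Programmes of B cell subsets were thinly covered. Of 20 genes linked to age-associated B cells, 10 were listed, 8 with higher and 2 with lower means. Crip1 rose and Lgals1, the galectin-1 gene, fell from 2.02 to 0.827. Tbx21, Itgax and Fcrl5, which define that subset, were not listed, and Cd86 was listed at 0 (young) and 0.458 (senescent). In the plasma cell list 6 of 20 were listed, 3 on each side, and Hspa5, an endoplasmic reticulum chaperone gene, fell from 3.76 to 2.48. Jchain, Sdc1, Mzb1 and Prdm1 were not listed. Xbp1, which drives the secretory programme, had means of 0.436 and 0.845. For B-1 and marginal zone cells 4 of 16 genes were listed, and Zbtb20, a zinc finger factor, fell from 6.01 to 2.2. Germinal centre and cycling genes had 3 of 15 listed, and Mki67 was not among them.

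**Figure D3:**
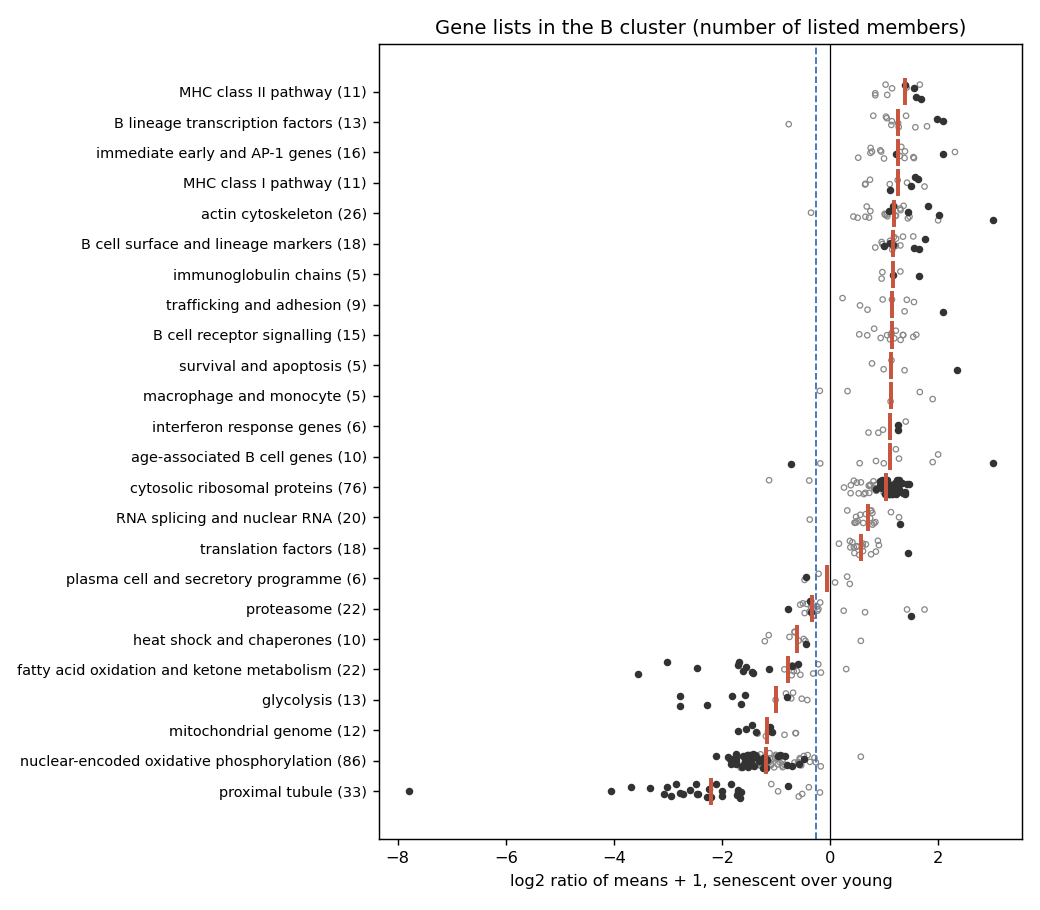
Log2 ratio of the senescent over the young mean, each plus 1, for members of the gene lists with at least 5 members listed in B. Filled points passed the authors' adjusted p, red bars are list medians and the dashed line is the median of all listed genes at -0.27. Medians run from 1.37 for the MHC class II pathway to -2.20 for proximal tubule markers.

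Ribosomal protein genes formed the largest group that rose. Of 79 such genes listed in any cluster, 76 were listed in B, 74 with higher means, and 53 rose, against 102 genes that rose in all. Rps24 had means of 41.6 and 116.2, Rps27 had means of 34.7 and 94.6, and Rps29 had means of 37.6 and 89.8. The means of the group made up 18.0% (young) and 41.8% (senescent) of the listed total. The 2 with lower means were Rps27l and Rpl7l1, both paralogues of ribosomal protein genes, and neither passed. Fau, which encodes a ubiquitin-like protein fused to a ribosomal protein, rose from 41.0 to 112.3. It was the only one of 18 listed translation factor genes that rose, and Eef1a1, the main elongation factor gene, had means of 25.3 and 34.0. All 18 had higher means. Among RNA splicing genes 19 of 20 listed members had higher means, and Ddx5, an RNA helicase gene, rose from 5.80 to 15.6.

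Set against the ribosomal protein genes, few of the B cell genes that passed the adjusted p stood out. The median log2 fold change of the 76 ribosomal protein genes was 1.10 in the authors' deposited table. Cd79a, at 1.06 in that table, lay just under this, and Cd79b and Ighm lay at 1.24. With the log2 fold changes centred on the ribosomal median, 6 genes past the adjusted p were higher by at least 1 and 505 lower, in place of 86 and 477. Thus 1.17% of the calls were higher in place of 15.3%. The adjusted p was kept as deposited and does not refer to the ribosomal median. The shift puts every gene that fell past the threshold, so the 505 are all of those genes. The change in these counts follows from the shift itself. These 6 were Stk17b (2.83 above the ribosomal median), Crip1 (2.74), Klf2 (1.32), Ebf1 (1.20), Psmb8 (1.04) and Cd47 (1.00). Cd47 encodes a surface signal that protects cells from phagocytosis, and it had means of 1.09 and 4.68. Relative to Cd79a, the transcripts of Stk17b were 7.26-fold, of Crip1 6.84-fold, of Klf2 2.56-fold and of Ebf1 2.35-fold more abundant in the senescent than in the young library. Cd79b relative to Cd79a differed by 1.13-fold.

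Genes of energy metabolism had lower means almost throughout. Of 86 listed nuclear genes of oxidative phosphorylation, assembly factors included, 85 had lower means and 41 fell, with a median log2 ratio of -1.19. Cox8a, a subunit of cytochrome c oxidase, fell from 30.3 to 9.86, and Ndufa4, another respiratory chain subunit, from 26.9 to 5.44. All 12 listed genes of the mitochondrial genome had lower means and 7 fell, mt-Cytb from 186.1 to 62.2 and mt-Atp6 from 201.9 to 94.5. Their share of the listed total was 14.4% (young) and 7.33% (senescent). All 13 listed glycolysis genes had lower means and 7 fell. They included Gapdh, at 18.7 and 4.57. Of 22 listed genes of fatty acid oxidation, 21 had lower means and 12 fell, Acsm2 from 14.8 to 0.348. The iron storage gene Fth1 fell from 134.4 to 39.5 and the peroxide-removing gene Gpx1 from 46.4 to 7.20. Heat shock genes had lower means in 9 of 10 listed members, of which 1 fell, where 71.7% of all listed genes had lower means and 16.4% fell. The tubule markers given above were lower beside all of these.

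Levels in another cluster, PT, were set beside the genes that fell in B. The PT cluster, a label the table does not spell out, listed 379 of the 505 genes that fell in B and lacked 126. In the young library, 281 of the 379 were more abundant in PT cells and 98 in B cells. The same share over all genes listed in both clusters was not counted. The split is therefore not given as a trait of the genes that fell. Genes not listed in PT have no known level there and could not be sorted in this way. Without the genes listed as more abundant in young PT cells, and with the unlisted ones kept, there were 85 higher and 210 lower genes past both thresholds, so that 28.8% of these were higher in place of 15.3%.

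Apart from the proximal tubule, each list of other cell type markers had 5 or fewer members listed in B, and the levels of the unlisted ones are not known. Of 22 T and NK cell markers only Gzma was listed, at 0.542 and 0, and Cd3d, Cd3e and Cd3g were not listed. Of 21 macrophage and monocyte markers 5 were listed, with sums of 7.35 (young) and 23.7 (senescent). Apoe had the highest means of these, at 2.13 and 10.6, followed in the senescent library by Ctss (5.15) and Plac8 (5.01). The senescent mean of Apoe was also higher in the clusters labelled T, Marco, PT, LOH and endo. It had means of 9.02 and 143.6 in Marco and of 0.776 and 12.4 in PT, so its difference was not limited to B. Apoe is also on the list of age-associated B cells, and Plac8 on that of B-1 and marginal zone cells. The sums are therefore not of macrophage and monocyte genes alone. The defining complement genes C1qa, C1qb and C1qc and Csf1r were not listed, and 0 of the 5 passed the adjusted p. Neutrophil markers had 3 of 12 listed, with S100a8 (0.589) and S100a9 (0.632) listed at 0 in the young library. Endothelial markers had 1 of 13 listed, Pecam1 at 0 and 0.703. Thick ascending limb and distal tubule markers had 2 of 12 listed, Umod at 0.734 and 0.336 and Ppp1r1a, which fell, at 0.458 and 0. Collecting duct, dendritic cell and erythroid markers had 1 listed each, Aqp3, Irf8 and Bpgm, and podocyte, fibroblast and smooth muscle markers had 0. Their part in the results was not tested.

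Genes of the B cluster were then read in the clusters labelled T and Marco. Every cluster was drawn from this one pair of libraries. For that reason the values are set side by side and no agreement between them is counted. Igkc, at 38.1 and 120.3 in B, had means of 0.610 and 7.77 in T and of 0.188 and 1.99 in Marco, so its mean was highest in B in both libraries. It also had means of 0.501 and 1.59 in PT. In the clusters labelled LOH and endo its means were 0.0599 and 1.41, and 0 and 1.51. The higher senescent mean of Igkc was thus not limited to B. Crip1 had means of 2.50 and 16.6 in T and of 1.82 and 20.2 in Marco, close to its level in B in the senescent library. Stk17b had means of 0.966 and 3.91 in T and of 0.254 and 1.55 in Marco. Klf2 had means of 0.568 and 9.42 in Marco and was not listed in T, and Cd74 had means of 38.2 and 174.9 in Marco. Lgals1, which fell in B, had means of 2.14 and 6.96 in T. Ly6a, which rose in B, had means of 4.35 and 2.60 in Marco. Whether any of these differences is larger in B than in another cluster was not tested.

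**Figure D4:**
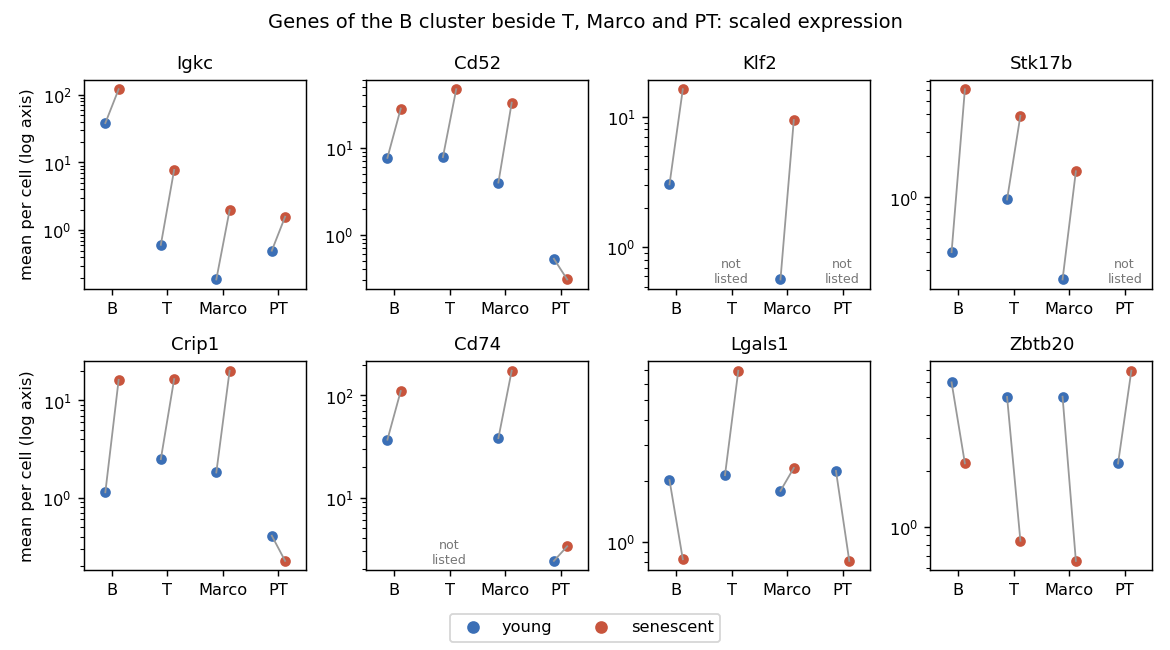
Mean scaled expression per cell (log axis, a range of its own in each panel) of 8 genes in the B, T, Marco and PT clusters, young in blue and senescent in red. Igkc is highest in B in both libraries, and Lgals1 is lower in the senescent library in B and PT and higher in T.

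For 44 genes the authors' deposited table lists a higher senescent mean in B and no value in any other cluster. Besides Cd79a, Cd79b, Ms4a1, Ebf1 and Ly6d they include Ighd, Iglc2, Iglc3, Bank1, Fcrla, Cd22, Bach2, Bcl11a and Spib, which are genes of B cells. Scd1, a fatty acid desaturase gene, is among them at 0.106 and 2.61, with an adjusted p of 1 in that table. It was chosen after its values were seen. Another 157 genes had a lower mean in B and no value elsewhere. Absence from the table does not show that a gene was unchanged or silent in the other clusters.

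Genes listed at 0 in 1 library show how unevenly small means could be listed. Among the genes with a mean of at least 0.1, 158 were listed at 0 in the senescent library and 61 at 0 in the young library. A young mean of 0.0906 sufficed for a listing against 0, counting all genes listed for B, whereas the lowest senescent mean listed against 0 was 0.382. Of the genes at 0 in the senescent library, 19 passed by the authors' deposited table, from a young mean of 0.396 upwards, and they include Inmt (5.91), Slco1a1 (2.25), Ces1f (2.07) and Acsm3 (2.05). Of the 61 at 0 in the young library, 0 passed in the authors' deposited table, all with an unadjusted p under 0.05, and the smallest adjusted p was 0.141, for a senescent mean of 3.88. The p-values of these genes took only 12 distinct values in 1 direction and 15 in the other. Above 0, means started at 0.0310 (young) and 0.00475 (senescent), and 37 genes shared the latter value. The excess of lower over higher genes in B was found with this difference in floors, whose part was not tested. No fold change is given against a mean of 0.

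**Figure D5:**
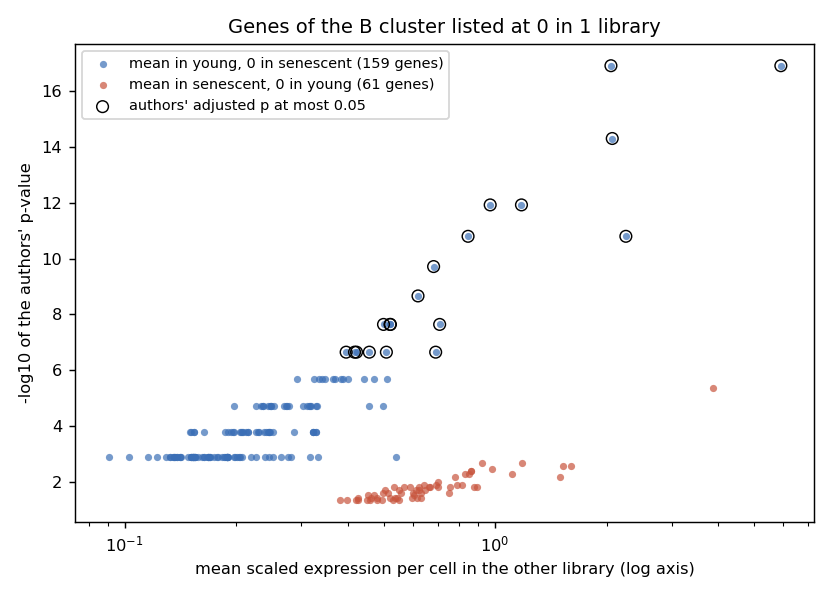
Mean in the other library (log axis) and -log10 of the authors' p-value for the genes of B listed at 0 in the senescent (blue) or the young library (red), with circles for an adjusted p of at most 0.05. The blue points begin at a mean of 0.0906 and form steps, the red points begin at 0.382, and only blue points are circled.

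In the mouse assembly GRCm38.p6, which has the build of the files, Cd79a lies on chromosome 7 from 24897497 to 24901858, Cd79b on chromosome 11 from 106311341 to 106314562, and Ms4a1 on chromosome 19 from 11249679 to 11266149. The constant region genes Ighm and Igkc lie on chromosome 12 from 113418826 to 113422730 and on chromosome 6 from 70726435 to 70726754. Ebf1 lies on chromosome 11 from 44618100 to 45008096, Klf2 on chromosome 8 from 72319062 to 72321654, Stk17b on chromosome 1 from 53755512 to 53785237 and Crip1 on chromosome 12 from 113152012 to 113153879. These 4 and the receptor genes Cd79a, Cd79b and Ms4a1 are annotated as protein coding.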

How the data were processed

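Reads were processed with Cell Ranger 2.1.1 against mm10, per the submitters' processing notes. The signal analysed is the authors' mean per cell in each cluster, in the deposited columns that the sample descriptions in the labels assign to the young and the senescent library. The log2 fold changes of the authors equal the log2 of the ratio of these means, each plus 0.0001, within 0.01 in all 3077 rows of B. The p-values and adjusted p-values were deposited by the authors. The column of adjusted values carries the heading FDR, yet its values below 1 are about 32574 times the p-value. The test, cell filters, doublet treatment and clustering are not given in these sources, and depth is unknown.

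Computed here, across all genes listed in B, were counts of genes past an adjusted p of 0.05 and a log2 fold change of 1, ratios of means, and medians of log2 ratios with a pseudocount of 1 for lists with at least 5 listed members. The members, 25 gene lists, 11 lists of other cell types and the call rules were chosen with earlier results of these data known. Named genes were the markers of the label, the 10 genes past the adjusted p with the largest difference in each direction and the 10 with the highest mean in each library, up to 6 members per list, and every listed member of the marker, receptor, immunoglobulin and transcription factor lists. Other genes named, and the gene ratios, were chosen after their values were seen. Symbols matched RefSeq for 3043 genes (99.0%). Alternatives were other thresholds, pseudocounts and centrings. The code was checked on simulated data. Python 3.11.15, numpy 2.4.6, pandas 2.3.3 and matplotlib 3.10.9 were used.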

Additional observations from a re-analysis of the deposited data

Results flagged for a closer look

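Some genes that passed the adjusted p of the authors' deposited table in B passed it in the opposite direction in another cluster. These differences were not tested, since each group had 1 library. In T this held for 2 of the 565 such genes listed there and in Marco for 6 of 563. In PT it held for 87 of the 379 listed genes that fell in B and for 6 of the 66 that rose.

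Among the named genes, the log2 fold change in B minus that in PT was 4.70 for Crip1, 3.36 for Tmsb10, 2.87 for Tmsb4x, 2.67 for Cd52, 2.44 for Ly6a and 2.22 for Sh3bgrl3, which rose in B and fell in PT. In PT, Crip1 had means of 0.408 and 0.225 and Tmsb4x had means of 3.05 and 1.74. The difference was -4.05 for Pck1, -3.11 for Zbtb20 and -2.91 for Spink1, which fell in B and rose in PT. The gluconeogenic gene Pck1 had means of 5.32 and 1.01 in B and of 4.38 and 13.8 in PT. Against Marco the difference for Ly6a was 2.27, and against T that for Lgals1 was -2.99.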

How the results depend on the processing

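With 1 library per group no library could be left out. No paired analysis was possible because each group has 1 library and the labels give no replicate numbers. In place of 86 higher and 477 lower genes in B, no adjusted p gave 501 and 1663, and a log2 fold change of at least 1.5 gave 24 higher genes. Centring on the ribosomal protein genes, which shifts every log2 fold change by 1.10, gave 6 higher genes, and leaving out genes listed with a higher young mean in PT gave 210 lower genes. The other counts, among them those with a minimum mean of 0.4 chosen after seeing the data, stayed within 1.5 times. Centring on the median of all listed genes (-0.27 for log2 ratios with a pseudocount of 1, -1.14 for log2 fold changes) turned the median log2 ratio of the plasma cell list to 0.20 and the log2 fold change of mt-Atp6 to 0.050. Centring on ribosomal protein genes (1.03 and 1.10) turned the median log2 ratio of translation factors to -0.47, that of splicing genes to -0.34 and the log2 fold change of Cd79a to -0.033. These follow from the shift itself. All other medians of the 24 lists and the other 39 of 41 named genes tried kept their direction under the alternatives run. Keeping direction is not keeping the call. Centring on ribosomal protein genes left 24 of the 41 short of the thresholds, centring on all listed genes 6, and an adjusted p of 0.01 left 5.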
